A study of Homo sapiens with 27 samples.

Results

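HCT116 cells, a human colorectal cancer (CRC) line, that had been made resistant to 5-fluorouracil (5-FU) were compared with untreated HCT116 cells by RNA sequencing. The comparison was chosen by sample title and takes 6 of the 27 libraries of the series, 3 of HCT116 5-FU res cells and 3 of HCT116 WT cells. The 5-FU res cells had been kept in 5 to 70 µM 5-FU for about 6 months, with a gradual rise in dose over many passages. The WT cells are the untreated negative control of the same line. The series also holds HCT116 cells made resistant to oxaliplatin (OX res; 5 to 35 µM over about 6 months) and the same 3 groups of SW480 and DLD-1 cells, which are CRC lines as well. Neither the labels nor the methods say whether libraries within a group were grown as separate cultures or come from more than 1 selection. The p-values of this comparison therefore rest on the scatter within groups of the 9 HCT116 libraries in the fit, OX res included. Part of this scatter may be technical, and an effect of the drug cannot be told apart from the outcome of selecting 1 population. Whether drug was present when RNA was taken is not given in the sources used here.

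5-FU is a uracil analogue that cells turn into fluorinated nucleotides. One of these, FdUMP, blocks thymidylate synthase (TYMS) and starves replication of thymidine nucleotides, while others are built into RNA and DNA, where they disturb RNA processing and call up base excision and mismatch repair. In cells with intact p53, such as HCT116, the stress activates p53 and its target genes. Interferon-stimulated genes, which turn out to carry the deepest change here, are the antiviral programme that type I interferon switches on through JAK kinases and a complex of STAT proteins with IRF9. That complex binds the interferon-stimulated response element (ISRE) in their promoters.

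The deposited values are FPKM of 26255 gene symbols, so read numbers are not known and counting error cannot be stated. A library's FPKM added up to 596975 to 630176 in 5-FU res and to 701434 to 720744 in WT cells. Dividing by this total gave TPM, a share of all transcripts that does not depend on their length. The value that 1 read is worth among low genes put the relative depth at 0.974 to 1.02 in 5-FU res and at 1.0 to 1.11 in WT libraries. The correlation of log2 values between libraries of a group was 0.993 to 0.995, and no pair was identical. Ribosomal protein transcripts took 24.0% to 26.1% of TPM in 5-FU res and 22.3% to 23.3% in WT libraries. Small RNA genes took 8.49% to 10.3% in 5-FU res and 5.51% to 7.42% in WT libraries. Most of that share was 1 symbol, MIR6723, at 6.64% to 7.93% in 5-FU res and 4.52% to 5.41% in WT libraries. The methods name an mRNA library kit, so which transcripts the values of small RNA genes stand for is uncertain. They are not read here as levels of small RNA. All 6 epithelial markers examined, EPCAM and KRT18 among them, reached 1 TPM in all 6 libraries. Of 8 fibroblast markers only COL1A1 reached 1 TPM, COL1A2, DCN and PDGFRA were listed at 0 in every library, and the 8 together took 6.20 to 6.95 TPM in 5-FU res and 6.26 to 7.04 TPM in WT libraries. Of 8 leukocyte markers CD68 and LYZ reached 1 TPM while CD3D was listed at 0 throughout, with sums of 16.6 to 19.2 TPM in 5-FU res and 18.1 to 19.2 TPM in WT libraries. None of 6 endothelial markers reached 1 TPM, with sums of 0.367 to 0.585 TPM in 5-FU res and 0.221 to 0.337 TPM in WT libraries.

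Of 14010 genes tested, 1621 (11.6%) exceeded their WT level by more than 1 on the log2 scale in 5-FU res cells, while 535 (3.82%) lay more than 1 below it, each at an adjusted p under 0.05 (limma on log2(TPM + 1), Benjamini-Hochberg over all genes tested). Fold changes on this scale understate those of low genes. Without the threshold on size, 6621 genes (47.3%) were higher and 3850 (27.5%) were lower. The split depends on scaling. With TPM the median gene shifted by 0.18 (log2), while median-of-ratios scaling, which sets that shift near 0, called 1003 higher and 1077 lower by more than 1 and put 4993 (35.6%) higher and 5653 (40.3%) lower at any size. All 535 genes called lower with TPM kept that call under median-of-ratios scaling, as did 1003 of the 1621 called higher. The shift ran with transcript length: cut by length into 4 equal bins, genes with the longest transcripts had a median log2 fold change of 0.51, and those with the shortest had -0.01. The groups of genes below are therefore given by their counts in each direction with TPM and, for whole groups, again with median-of-ratios scaling.

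The deepest falls in 5-FU res cells were those of interferon-stimulated genes. Of 35 interferon effectors tested, 33 were lower, 1 was higher and 1 did not pass the test, with a median log2 fold change of -2.36 against 0.18 for all genes, and 30 of them fell by more than 1. With median-of-ratios scaling 34 were lower and 1 higher. Together the 35 transcripts took 1852 to 1986 TPM in 5-FU res libraries, against 11778 to 12555 TPM in WT libraries. The 2 members that did not fall were TRIM22 (12.9 TPM in 5-FU res and 8.97 TPM in WT cells; log2 fold change 0.48), an antiviral ubiquitin ligase, and PARP14 (17.8 TPM in 5-FU res and 18.5 TPM in WT cells, adjusted p = 0.57, limma), which modifies proteins with ADP-ribose. Both were picked after their values were seen.

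IFI27, a mitochondrial protein and a sensitive read-out of interferon, had 1.32, 1.49 and 0.919 TPM in 5-FU res libraries, against 1200, 1185 and 1158 TPM in WT libraries. This was the largest fall of any gene named here (log2 fold change -9.05, standard error 0.079, adjusted p = 6.9e-15, limma), and no library of one group came near the other. IFI6, a related inhibitor of viral replication, had 17.4, 11.6 and 12.3 TPM in 5-FU res libraries, against 2273, 2109 and 2031 TPM in WT libraries (log2 fold change -7.19). BST2, or tetherin, which holds budding viruses at the cell surface, had 2.76, 4.73 and 3.74 TPM in 5-FU res libraries, against 591, 584 and 570 TPM in WT libraries (log2 fold change -6.96). In each of the 3 genes the lowest WT library lay far above the highest 5-FU res library. ISG15, a ubiquitin-like protein that is attached to other proteins during the response, was reduced less completely. It had 172, 160 and 142 TPM in 5-FU res libraries, against 2484, 2245 and 2100 TPM in WT libraries (log2 fold change -3.84, adjusted p = 7.0e-12, limma). IFI44, IFIT1 and OASL, likewise antiviral effectors, had log2 fold changes of -5.53, -4.93 and -3.95. OAS1, which makes the second messenger that activates RNase L, had -4.88, and IFITM1, which blocks viral entry, had -4.19. The 12 largest falls were taken among genes called, with no overlap between groups and a mean of at least 5 TPM in the higher group. Small RNA genes were left out. Of these 12 falls, 9 were members of the effector group. The values of these genes in each library are plotted on a log axis.

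**Figure D1:**
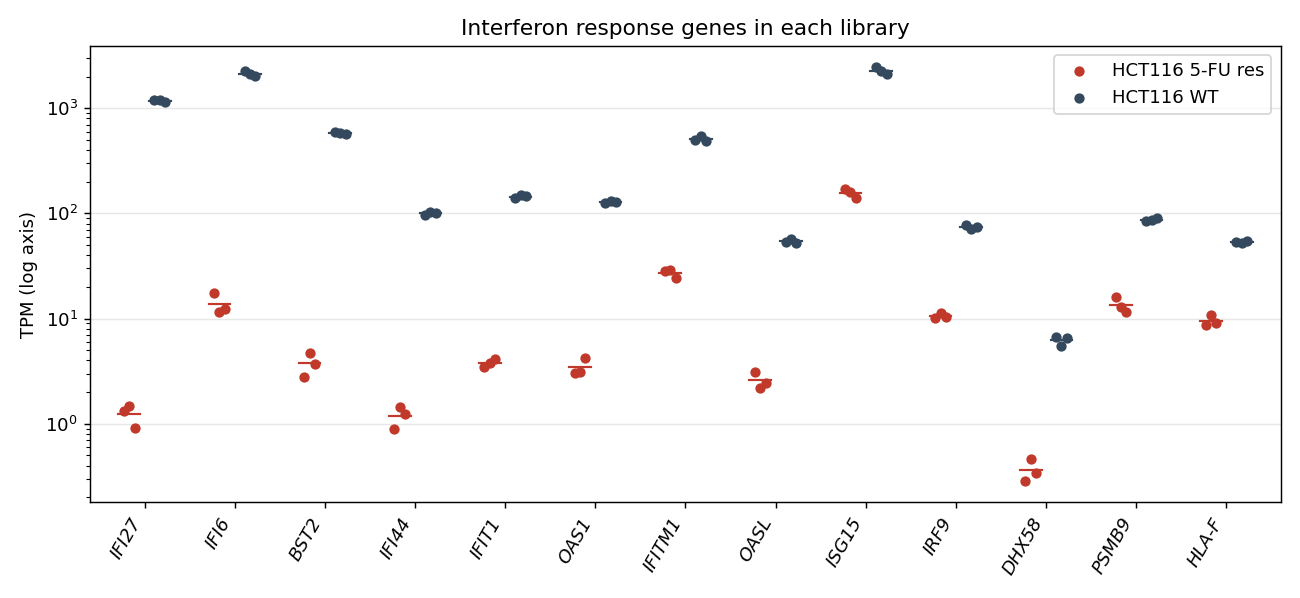
TPM of 13 interferon response genes (log axis) in each library, with 3 points per group and a line at the group mean; HCT116 5-FU res is left of HCT116 WT for each gene. For every gene the 3 points of 5-FU res cells lie below the 3 of WT cells, from IFI27 at 0.919 to 1.49 TPM against 1158 to 1200 TPM to HLA-F at 8.69 to 10.8 TPM against 52.4 to 54.1 TPM.

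Genes of antigen presentation, which interferon also induces, fell to a lesser degree. Of 15 tested, 13 were lower and 2 higher with either scaling, with a median of -1.03. PSMB9, a subunit of the immunoproteasome that cuts peptides for HLA class I, had 16, 12.9 and 11.6 TPM in 5-FU res libraries, against 84.7, 85.7 and 89.6 TPM in WT libraries (log2 fold change -2.61). HLA-F, a non-classical class I molecule, had a log2 fold change of -2.37. Among the classical class I chains HLA-B averaged 188 ± 1.67 TPM in 5-FU res and 674 ± 26.5 TPM in WT cells, and HLA-C 308 ± 8.24 TPM in 5-FU res and 958 ± 103 TPM in WT cells (SD, n = 3 each). B2M, their shared light chain, averaged 891 ± 28.1 TPM in 5-FU res and 2263 ± 78.1 TPM in WT cells (log2 fold change -1.34). The 2 that rose were ERAP1 (log2 fold change 0.53) and ERAP2 (0.64), which trim peptides in the endoplasmic reticulum. HLA genes share long stretches of sequence, so how the authors' counting split reads among them is uncertain. Apart from PSMB9 and HLA-F, the genes of this paragraph were picked after their values were seen.

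The sensors and signalling genes of the pathway were split. Of 19 tested, 8 were lower, 5 were higher and 6 did not pass the test, with a median of 0.00. With median-of-ratios scaling 12 were lower and 5 higher. IRF9, the DNA-binding part of the STAT complex, had 10.2, 11.3 and 10.4 TPM in 5-FU res libraries, against 78.0, 71.4 and 74.3 TPM in WT libraries (log2 fold change -2.70, adjusted p = 8.9e-12, limma). DHX58, an RNA sensor of the RIG-I family, had a log2 fold change of -2.41. IRF7, which drives interferon genes, averaged 10.3 ± 1.68 TPM in 5-FU res and 51.9 ± 3.07 TPM in WT cells (SD, n = 3 each). IRF9, DHX58 and IRF7 are themselves induced by interferon. IFNAR1, a receptor chain, had a log2 fold change of 0.66, the kinase JAK1 of 0.69 and MAVS, the mitochondrial adaptor of RNA sensors, of 1.47, but IFNAR1 (0.03) and JAK1 (0.13) did not pass once the trend on length was removed. Those of IFNAR2 (0.00), TYK2 (0.18), STAT2 (-0.10) and IRF3 (0.03) did not pass the test with TPM, and with median-of-ratios scaling IFNAR2 (-0.25), STAT2 (-0.35) and IRF3 (-0.24) were lower. Genes of this paragraph other than IRF9 and DHX58 were likewise picked after their values were seen. Proteins and their phosphorylation were not measured.

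The ISRE was looked for in the promoters of these genes. Promoters of 250 bases before to 50 after the RefSeq start (GRCh38.p14) were matched for 10824 of the genes tested. The core of the element, GAAA followed by any 2 bases and GAAA again on either strand, was found in 20 of 28 matched effectors (71.4%), in 7 of 12 antigen presentation genes (58.3%), in 2 of 12 sensors and signalling genes (16.7%) and in 301 of the 10824 genes (2.78%). A match is a description of letters and not a shown binding site. The windows of 5 of the genes with the largest falls are given here with the core in capitals, 5′ to 3′ along the strand of the gene, to show the element that genes of this group share.
IFI27, chr14:94110616-94110675, plus strand: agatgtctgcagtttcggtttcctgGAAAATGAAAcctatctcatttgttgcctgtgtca
IFI6, chr1:27672314-27672373, minus strand: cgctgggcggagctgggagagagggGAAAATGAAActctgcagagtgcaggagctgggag
BST2, chr19:17405726-17405785, minus strand: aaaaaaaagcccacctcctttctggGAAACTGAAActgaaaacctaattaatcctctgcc
IFIT1, chr10:89392482-89392541, plus strand: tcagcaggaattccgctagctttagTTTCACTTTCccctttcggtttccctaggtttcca
ISG15, chr1:1013365-1013424, plus strand: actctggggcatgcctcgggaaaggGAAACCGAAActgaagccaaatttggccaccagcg

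In these windows the core begins 95 bases before the start in IFI27, 156 in IFI6 and 130 in BST2. It begins 116 bases before the start in IFIT1, where it reads on the opposite strand, and 107 in ISG15. Each of these 5 promoters holds more than 1 overlapping or neighbouring core, but they are examples and do not stand for all the largest falls. IFI44 and IFITM1 had only 1 core each before the start. For OAS1 and OASL none was found there or no promoter was matched. Among 272 matched genes with a core that are not on the interferon list, 96 (35.3%) were lower and 27 (9.93%) fell by more than 1, against 3004 (28.6%) and 355 (3.38%) of 10500 genes with neither. On the list, 26 of 29 genes with a core (89.7%) were lower and 23 (79.3%) fell by more than 1, against 15 (65.2%) and 14 (60.9%) of 23 without one, with medians of -1.65 and -1.63. These counts were made after the fall of the interferon genes was known.

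The interferon genes set 5-FU res cells apart from the other resistant cells of the line too. OX res cells averaged 3089 ± 155 TPM of IFI27, 4780 ± 89.1 TPM of IFI6 and 2538 ± 138 TPM of ISG15 (SD, n = 3), each above its WT mean of 1181, 2138 and 2276 TPM. Tested directly, without the WT libraries in the contrast, all 35 effectors and all 15 antigen presentation genes were lower in 5-FU res than in OX res cells, as were 17 of 19 sensors, and none was higher with TPM. Over all genes 7941 (56.7%) were lower and 2857 (20.4%) higher in that contrast, with a median of -0.34, a direction that turned over with median-of-ratios scaling (5045, or 36%, lower and 5393, or 38.5%, higher, with a median of 0.02). With that scaling the 35 effectors and 15 antigen presentation genes were again all lower in 5-FU res than in OX res cells, and of the 19 sensors 15 were lower and 2 higher. IFI27 differed by -10.44, IFI6 by -8.36 and BST2 by -7.99 on the log2 scale between 5-FU res and OX res cells.

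The effectors did not fall as a group in 5-FU res cells of the other lines. The test was an interaction in limma over all 27 libraries, the log2 fold change between 5-FU res and WT cells in HCT116 minus that in the other line. Against SW480, 29 of the 35 effectors had a difference below -1 at an adjusted p under 0.05 and none one above 1, beside 2255 (14.3%) below -1 and 879 (5.56%) above 1 among all 15801 genes tested (19.8% in either direction). Against DLD-1, 32 of 35 had a difference below -1 and none above 1, beside 811 (5.13%) below -1 and 2114 (13.4%) above 1 among all genes (18.5% in either direction). Of the 15 antigen presentation genes 12 had a difference below -1 against SW480 and 6 against DLD-1, and none one above 1. Within DLD-1 itself 11 of the 15 were lower and 1 higher (median -0.41), and within SW480 13 were higher and none lower (median 0.51). As for the effectors, within SW480 25 rose and 5 fell with resistance to 5-FU, with a median of 0.81, and within DLD-1 8 were higher and 6 lower, with a median of -0.02. IFI27 averaged 146 ± 13 TPM in SW480 5-FU res and 75.9 ± 6.05 TPM in SW480 WT cells, and 2.06 ± 0.503 TPM in DLD-1 5-FU res and 1.59 ± 0.591 TPM in DLD-1 WT cells (SD, n = 3 each). The level in untreated cells thus differed between the lines as well, with HCT116 WT cells far above the others. The IFI27 level of DLD-1 WT cells left little room for a fall. ISG15 averaged 113 ± 5.23 TPM in SW480 5-FU res and 97.6 ± 7.19 TPM in SW480 WT cells, and 183 ± 6.52 TPM in DLD-1 5-FU res and 147 ± 10.7 TPM in DLD-1 WT cells. Its 158 ± 15.3 TPM in HCT116 5-FU res cells lay in the range of these lines.

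**Figure D2:**
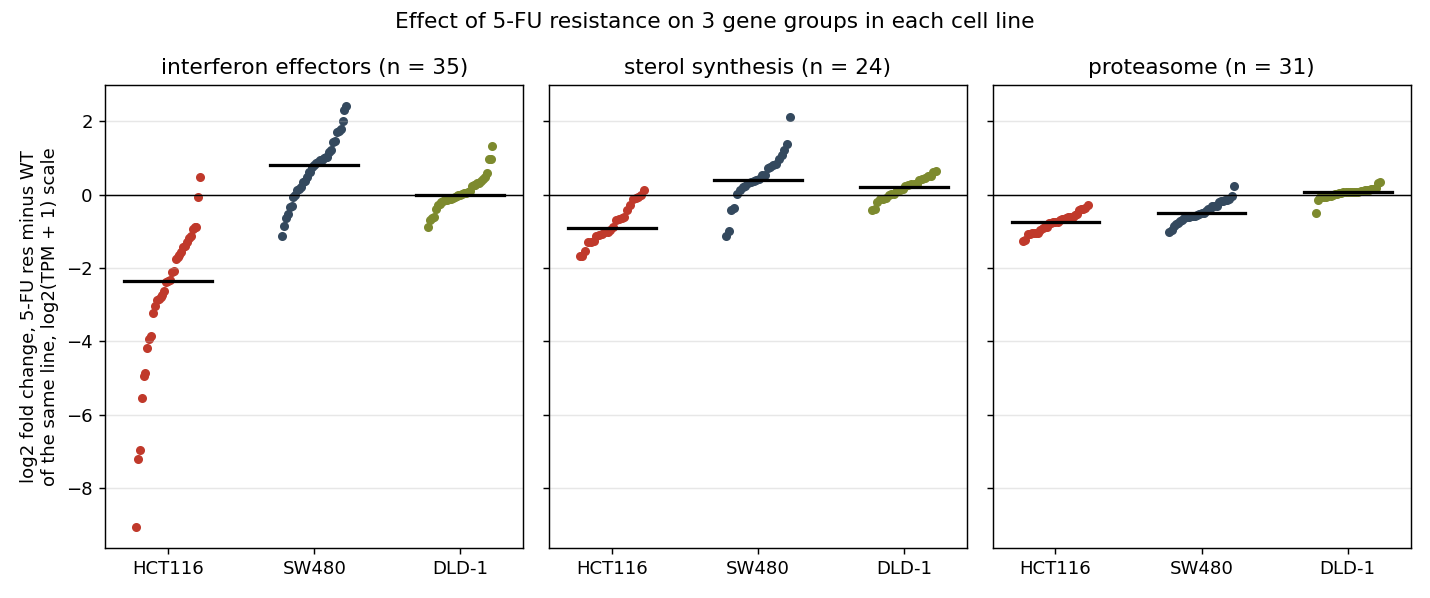
Log2 fold change between 5-FU res and WT cells of the same line (log2(TPM + 1) scale) for each member of 3 gene groups in HCT116, SW480 and DLD-1 cells; points are genes in order of value and the bar is the median. The medians of the interferon effectors are -2.36 in HCT116, 0.81 in SW480 and -0.02 in DLD-1, those of sterol synthesis -0.92, 0.40 and 0.20, and those of the proteasome -0.74, -0.50 and 0.07.

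Genes for the proteasome, mitochondrial energy production and mitochondrial translation fell together by a smaller amount. All 31 constitutive proteasome subunits tested were lower in 5-FU res cells with either scaling, with a median of -0.74, and 8 fell by more than 1. PSMB5 and PSMB6, which carry 2 of the cutting activities of the core particle, had log2 fold changes of -1.26 and -1.23. PSMB5 had 177, 182 and 184 TPM in 5-FU res libraries, against 430, 451 and 424 TPM in WT libraries, with no overlap. Of 75 respiratory chain genes 73 were lower, 1 was higher and 1 did not pass the test (median -0.71), and with median-of-ratios scaling 73 were lower and none higher. The fall reached every complex: 36 of 37 genes of complex I, 4 of 4 of complex II, 9 of 9 of complex III, 10 of 10 of complex IV and 14 of 15 of the ATP synthase were lower. NDUFS7, an iron-sulphur subunit of complex I, had 50.9, 44.9 and 42.2 TPM in 5-FU res libraries, against 140, 128 and 113 TPM in WT libraries (log2 fold change -1.45), and the other members named by the rule (NDUFA7, SDHB, SDHC, UQCRQ, UQCRC1, COX7B, COX4I1, ATP5D and ATP5J2) ranged from -1.33 to -0.51.

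Of 76 mitochondrial ribosomal proteins 71 were lower and 2 higher (median -0.73), and with median-of-ratios scaling 74 were lower and 1 higher. MRPS34 of the small subunit had 106, 106 and 105 TPM in 5-FU res libraries, against 276, 266 and 254 TPM in WT libraries (log2 fold change -1.32), and MRPS24 of the same subunit had a log2 fold change of -1.20. MRPL11 and MRPL39 of the large subunit had -1.30 and -1.25. These 3 groups hold short transcripts, and the fold change ran with length over all genes. With the trend on transcript length removed 31 of 31 proteasome, 74 of 75 respiratory chain and 73 of 76 mitochondrial ribosomal genes were lower. Genes of the cytosolic ribosome went with the scaling: 31 of 78 were higher and 11 lower with TPM, a direction that turned over to 4 higher and 32 lower with median-of-ratios scaling. RPS18 averaged 10631 ± 479 TPM in 5-FU res and 6648 ± 269 TPM in WT cells, and RPL41 6986 ± 285 TPM in 5-FU res and 9054 ± 107 TPM in WT cells (SD, n = 3 each). RPL13A (-0.27) and RPS26 (-0.50) were the other members named by the rule. Many ribosomal protein genes have near-identical pseudogene copies, so their values are uncertain.

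Sterol synthesis fell while fatty acid synthesis was mixed. Of 24 sterol genes 19 were lower, none was higher and 5 did not pass the test (median -0.92), and with median-of-ratios scaling all 24 were lower. INSIG1, the sterol-controlled anchor of the SREBP activator, had 10.2, 10.8 and 10.7 TPM in 5-FU res libraries, against 34.4, 36.7 and 36 TPM in WT libraries (log2 fold change -1.66). Of 10 fatty acid genes 5 were lower and 2 higher (median -0.19; 6 and 2 with median-of-ratios scaling), with ELOVL6, an elongase, at -0.66 and SCD, the stearoyl-CoA desaturase, at -0.61. The sterol genes also differed from the other lines, with interactions below -1 for 16 of 24 against SW480 and 15 of 24 against DLD-1, where 14.3% and 5.13% of all genes were below -1. Of the 31 proteasome genes none passed against SW480 and 11 did against DLD-1, all below -1. Of the 75 respiratory chain genes 7 passed against SW480, a smaller share than among all genes, and 10 against DLD-1, also all below -1. With median-of-ratios scaling these became 10 and 16 of 24 sterol genes, 0 and 17 of 31 proteasome genes, and, for the respiratory chain, 1 below -1 and 1 above 1 against SW480 and 24 of 75 below -1 against DLD-1. Over all genes that scaling put 10.2% below -1 and 8.39% above 1 against SW480, and 8.39% below -1 and 9.49% above 1 against DLD-1.

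Genes of protein folding and of amino acid supply were lower too. Of 38 chaperones of the unfolded protein and heat shock responses 28 were lower and 6 higher (median -0.51; 31 and 5 with median-of-ratios scaling). SDF2L1 and CRELD2, both of the endoplasmic reticulum and induced by misfolded protein, had log2 fold changes of -1.81 each, HSPB1, a small heat shock protein, of -1.22 and HSPA1B of -0.78. HSPA1B is near-identical to HSPA1A, so its share of reads is uncertain. Of 35 targets of the integrated stress response, which ATF4 directs, 24 were lower and 9 higher (median -0.36; 26 and 5 with median-of-ratios scaling). PHGDH, which opens serine synthesis, had 26.6, 27.7 and 29.4 TPM in 5-FU res libraries, against 108, 104 and 103 TPM in WT libraries (log2 fold change -1.87). SHMT2, which passes the carbon of serine to mitochondrial folate, had 73.3, 71.9 and 74.2 TPM in 5-FU res libraries, against 219, 218 and 214 TPM in WT libraries (log2 fold change -1.56, adjusted p = 5.6e-11, limma). In both genes the libraries of the groups lie far apart.

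**Figure D3:**
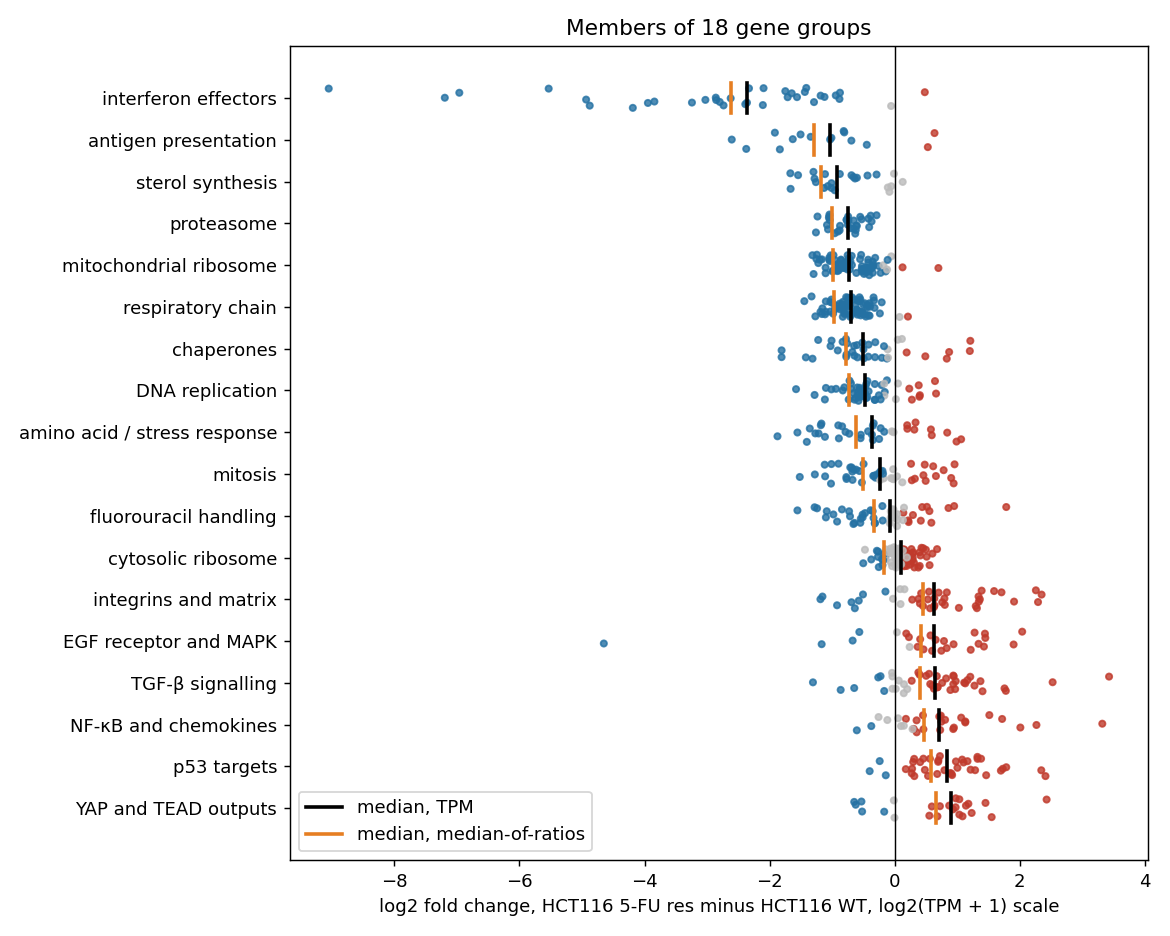
Log2 fold change between HCT116 5-FU res and HCT116 WT cells (log2(TPM + 1) scale) of every tested member of 18 gene groups; red points are higher and blue points lower at an adjusted p under 0.05, grey points did not pass, and black and orange bars are the medians with TPM and with median-of-ratios scaling. The interferon effectors (median -2.36) lie farthest to the left, all 31 proteasome genes are left of 0, and 35 of 38 p53 targets are right of it.

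Targets of p53 rose in 5-FU res cells. Of 38 tested, 35 were higher and 3 lower (median 0.84), and 15 rose by more than 1. With median-of-ratios scaling 29 were higher and 3 lower. Among genes of arrest and feedback 12 of 13 were higher. CDKN1A, the p21 inhibitor of cyclin-dependent kinases, had 762, 745 and 750 TPM in 5-FU res libraries, against 409, 393 and 401 TPM in WT libraries (log2 fold change 0.91). TP53INP1, a pro-death stress protein, had 43.6, 38.4 and 43.7 TPM in 5-FU res libraries, against 6.82, 6.74 and 7.66 TPM in WT libraries (log2 fold change 2.41). ZMAT3, an RNA-binding protein, followed with a log2 fold change of 2.34, and MDM2, which degrades p53, averaged 121 ± 7.80 TPM in 5-FU res and 47.8 ± 3.36 TPM in WT cells (SD, n = 3 each; picked after its values were seen).

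The rise included genes of cell death, of which 10 of 11 were higher. PERP, a membrane protein of desmosomes and apoptosis, had log2 fold change 1.73, TP53I3, a quinone oxidoreductase, 1.70, and BBC3, the BH3-only protein PUMA, 1.38. Of 14 genes of repair and metabolism 13 were higher. RRM2B, the p53-induced small subunit of ribonucleotide reductase, had 89.5, 82.8 and 93.1 TPM in 5-FU res libraries, against 23.1, 24.8 and 27.1 TPM in WT libraries (log2 fold change 1.78, adjusted p = 2.2e-09, limma). SUSD6 had a log2 fold change of 1.46. GDF15, a stress cytokine of the TGF-β family that p53 also induces, had 1073, 934 and 912 TPM in 5-FU res libraries, against 588, 502 and 485 TPM in WT libraries (log2 fold change 0.89, adjusted p = 9.0e-07, limma). Compared directly with OX res cells, 32 of the 38 targets were lower and 2 higher in 5-FU res cells (26 and 6 with median-of-ratios scaling). Over all genes 56.7% were lower and 20.4% higher in that contrast with TPM, and 36% and 38.5% with median-of-ratios scaling. GDF15 averaged 973 ± 87.4 TPM in 5-FU res and 1607 ± 89.3 TPM in OX res cells, and CDKN1A 752 ± 8.75 TPM in 5-FU res and 1562 ± 73.7 TPM in OX res cells (SD, n = 3 each). Compared with their own WT cells, 5-FU res cells of SW480 had 32 of the 38 targets up and 2 down (median 0.79), and those of DLD-1 had 15 up and 8 down (median -0.01). Activity of the p53 protein was not measured in any line, and whether it drove these changes was not tested. Against SW480 4 targets had an interaction above 1 and 3 one below -1 (6 and 2 with median-of-ratios scaling), where 5.56% of all genes were above 1 and 14.3% below -1. Against DLD-1 15 were above 1 and 1 below -1 (12 and 2 with median-of-ratios scaling), where 13.4% of all genes were above 1 and 5.13% below -1.

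Among apoptosis regulators 20 of 34 were higher and 11 lower (median 0.45), and 19 and 13 with median-of-ratios scaling. Over all genes 47.3% were higher and 27.5% lower with TPM. With the trend on length removed the median of the list was 0.29. The list shares BCL2L1, BAX, BBC3, PMAIP1, FAS, TNFRSF10A and TNFRSF10B with the p53 targets, and each of these was higher with TPM. BCL2L11, the BH3-only protein BIM, had a log2 fold change of 1.5 and CFLAR, which restrains caspase-8, of 1.57. BIRC3, an inhibitor of apoptosis and a target of NF-κB, had 39.2, 36.7 and 41.5 TPM in 5-FU res libraries, against 3.29, 2.79 and 2.99 TPM in WT libraries (log2 fold change 3.32, adjusted p = 1.8e-11, limma). Pro-death and anti-death genes thus both rose.

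Among the genes that handle 5-FU more fell than rose. Of 49 tested, 12 were higher and 24 lower (median -0.08), and 7 higher and 34 lower with median-of-ratios scaling. TYMS, the enzyme that 5-FU blocks, had 123, 112 and 119 TPM in 5-FU res libraries, against 168, 166 and 173 TPM in WT libraries (log2 fold change -0.51, adjusted p = 1.1e-06, limma). TYMS was thus lower in every library of the resistant cells. RRM2, the replicative small subunit of ribonucleotide reductase, had 165, 162 and 172 TPM in 5-FU res libraries, against 232, 243 and 238 TPM in WT libraries (log2 fold change -0.51), opposite to the rise of RRM2B. SAMHD1, which breaks down deoxynucleotides and is also induced by interferon, had a log2 fold change of -1.24.

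Of 13 genes of uptake and activation 5 were higher and 5 lower, which became 1 and 8 with median-of-ratios scaling. TK1, the cytosolic thymidine kinase, had 218, 236 and 205 TPM in 5-FU res libraries, against 452, 428 and 420 TPM in WT libraries (log2 fold change -0.98), whereas TK2, its mitochondrial counterpart, had 20.2, 19.2 and 19.6 TPM in 5-FU res libraries, against 9.61, 10.8 and 10.8 TPM in WT libraries (log2 fold change 0.86). TYMP, thymidine phosphorylase, which can turn 5-FU into its deoxynucleoside, had 22.6, 20.1 and 18.1 TPM in 5-FU res libraries, against 51.6, 41.2 and 41.3 TPM in WT libraries (log2 fold change -1.10). UMPS, which makes the fluorinated ribonucleotide in 1 step, had a log2 fold change of -0.32. The small difference of UPP1, uridine phosphorylase, was 0.22 with TPM and -0.04 with median-of-ratios scaling, and with TPM it no longer passed without 5-FU res library 1 (0.16) or WT library 3 (0.17). DPYD, the enzyme that breaks 5-FU down, was low in all libraries, with 0.331, 0.148 and 0.281 TPM in 5-FU res libraries and 0.369, 0.252 and 0.341 TPM in WT libraries, which overlap (adjusted p = 0.61, limma). Among 14 folate genes 7 were lower and 3 higher (10 and 3 with median-of-ratios scaling), SHMT2 most of all, and FOLR1, a folate receptor, had -0.73. Among 10 genes of uracil excision 6 were lower and 1 higher (8 and 1 with median-of-ratios scaling), with FEN1, the flap nuclease, at -1.28 and PARP1 at -0.84. Compared directly with OX res cells, TK1 was higher by 2.00, RRM2 by 1.84 and TYMS by 0.57 on the log2 scale in 5-FU res cells.

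**Figure D4:**
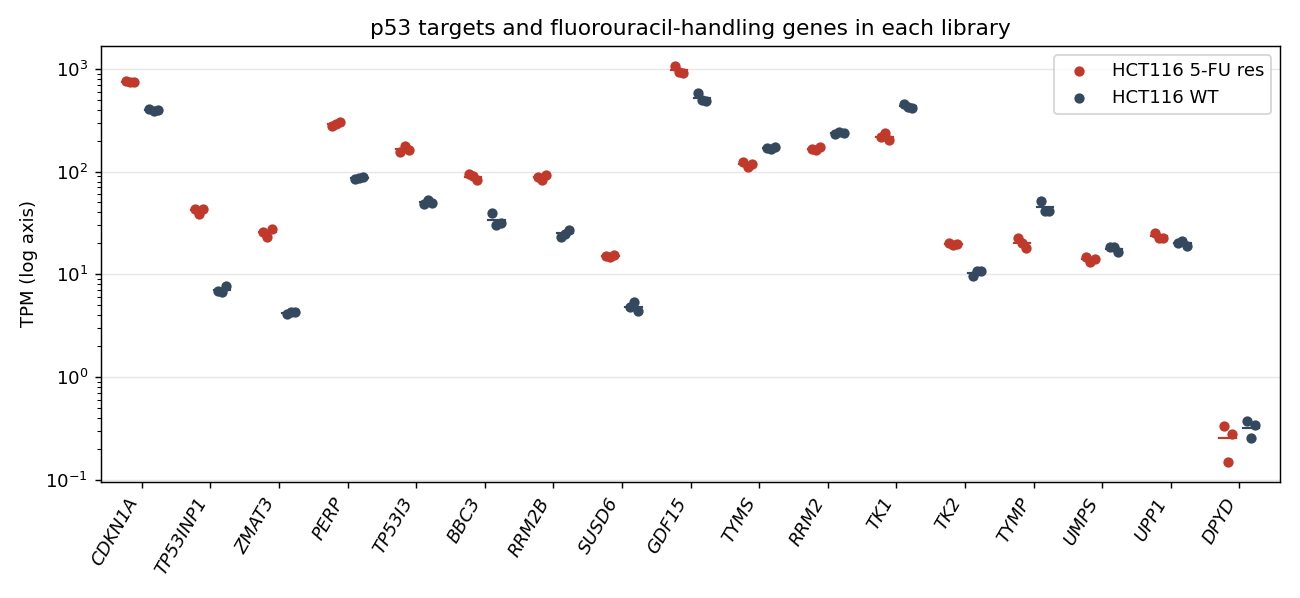
TPM of 9 p53 targets and of 8 genes that handle 5-FU (log axis) in each library, with 3 points per group and a line at the group mean; HCT116 5-FU res is left of HCT116 WT for each gene. The p53 targets lie higher in 5-FU res cells, TYMS, RRM2, TK1, TYMP and UMPS lie lower, and DPYD is at 0.148 to 0.331 TPM against 0.252 to 0.369 TPM.

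Replication and mitosis genes fell. Of 51 replication genes 40 were lower and 7 higher (median -0.48; 43 and 3 with median-of-ratios scaling), and of 47 mitosis genes 27 were lower and 12 higher (median -0.24; 34 and 9 with median-of-ratios scaling). GINS2, a part of the replicative helicase, had 49.3, 46.4 and 51.7 TPM in 5-FU res libraries, against 145, 158 and 144 TPM in WT libraries (log2 fold change -1.58). CDC20, which activates the anaphase-promoting complex, had 154, 148 and 152 TPM in 5-FU res libraries, against 447, 428 and 430 TPM in WT libraries (log2 fold change -1.52), and PLK1, a mitotic kinase, had a log2 fold change of -1.28. Set against OX res cells the direction was the opposite. There 45 of 51 replication genes and 45 of 47 mitosis genes were higher in 5-FU res cells (48 and 46 with median-of-ratios scaling). Over all genes 20.4% were higher and 56.7% lower in that contrast with TPM, and 38.5% and 36% with median-of-ratios scaling. Of 15 genes of G1 control 9 were higher and 5 lower (8 and 6 with median-of-ratios scaling), with RBL2, a retinoblastoma family member, at 1.74 and CCND3, cyclin D3, at -1.17. Of 16 replication histone genes 6 were higher, none was lower and 10 did not pass the test (6 higher and 1 lower with median-of-ratios scaling). Their median of 0.17 was near the 0.18 of all genes, of which 47.3% were higher and 27.5% lower with TPM. HIST2H2BE (2.39) and HIST1H2AC (2.00), the members named by the rule, are known to make polyadenylated transcripts too. In bulk RNA a smaller share of dividing cells and less RNA per cell cannot be told apart.

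Mismatch and crosslink repair genes depended on the scaling: 15 of 24 were higher and 5 lower with TPM, and 8 higher and 9 lower with median-of-ratios scaling. PMS2, of mismatch repair, had a log2 fold change of 1.01 and XRCC2, of homologous recombination, of 1.23. BRCA2, a long transcript, had 1.17 with TPM and 0.17 once the trend on length was removed, where it no longer passed the test. EXO1, the excision nuclease, had -0.38. MSH4, a MutS homologue used in meiosis, had 13.7, 12.1 and 14.7 TPM in 5-FU res libraries, against 0.326, 0.243 and 0.302 TPM in WT libraries (log2 fold change 3.49, adjusted p = 6.0e-10, limma), so a gene under 1 TPM in WT cells passed 10 TPM in every library of 5-FU res cells.

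The 12 largest rises were taken with the same limits as the 12 largest falls. Of these genes GAS6, the ligand of the TAM receptor kinases AXL, TYRO3 and MERTK, was the most abundant. GAS6 had 363, 335 and 344 TPM in 5-FU res libraries, against 28.9, 25.5 and 27.5 TPM in WT libraries (log2 fold change 3.62, standard error 0.058, adjusted p = 1.0e-12, limma). AXL rose as well, with 89.0, 84.1 and 87.7 TPM in 5-FU res libraries, against 28.4, 29.4 and 29.3 TPM in WT libraries (log2 fold change 1.55). GAS6 was higher by 2.15 on the log2 scale in 5-FU res than in OX res cells. GAS6-AS2, a transcript from the opposite strand at that locus, had a log2 fold change of 3.11, and whether the counting used strand is not given in the sources used here. NRP1, a co-receptor of semaphorins and VEGF, had 13.8, 11.1 and 14.2 TPM in 5-FU res libraries, against 0.337, 0.584 and 0.541 TPM in WT libraries (log2 fold change 3.23), and LINC01021, a long non-coding RNA known to be induced by p53, had a log2 fold change of 3.43. TMEM200A, a membrane protein, had 3.15.

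The rest of the 12 largest rises are less certain as single genes. ANKRD20A12P (3.80) is a pseudogene of a family of near-identical copies, ZBED6 (3.71) lies within an intron of another gene, TMEM256-PLSCR3 (3.05) is a read-through of neighbouring genes, and LOC102723769 (3.58) has no name. Among the largest falls outside the interferon group, EREG, an EGF receptor ligand, had 1.18, 0.936 and 1.12 TPM in 5-FU res libraries, against 47.3, 53 and 53.6 TPM in WT libraries (log2 fold change -4.65). MALL, a proteolipid of membrane rafts, had 7.0, 6.9 and 6.73 TPM in 5-FU res libraries, against 120, 119 and 122 TPM in WT libraries (-3.95). KRTAP3-1, a keratin-associated protein, had 1.29, 0.883 and 4.53 TPM in 5-FU res libraries, against 47.7, 48.7 and 53.1 TPM in WT libraries (-4.14).

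Several groups of signalling outputs rose. Of 29 genes of NF-κB and chemokines 21 were higher and 2 lower (median 0.71; 17 and 5 with median-of-ratios scaling), with a median of 0.42 once the trend on length was removed. Besides BIRC3, TNFAIP3, the feedback inhibitor A20, had 12.8, 11.5 and 12.2 TPM in 5-FU res libraries, against 1.7, 1.71 and 1.8 TPM in WT libraries (log2 fold change 2.27), and the cytokines IL32 and CCL20 had 1.72 and 1.13. Of 26 genes of EGF receptor and MAPK signalling 20 were higher and 4 lower (median 0.63; 17 and 5 with median-of-ratios scaling). EGFR had 29.3, 20.8 and 26.4 TPM in 5-FU res libraries, against 5.67, 5.70 and 6.77 TPM in WT libraries (log2 fold change 1.90), while its ligand EREG fell as given above. DUSP4 and SPRY4, feedback inhibitors of ERK signalling, had log2 fold changes of 2.04 and 1.45. Of 24 outputs of YAP and TEAD 17 were higher and 5 lower (median 0.90; 17 and 6 with median-of-ratios scaling), and the median was 0.35 with the trend on length removed. They were led by NT5E, the ecto-enzyme CD73 that makes adenosine, with 74.2, 72.4 and 73.9 TPM in 5-FU res libraries, against 12.7, 12.3 and 13.6 TPM in WT libraries (2.43).

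TGF-β signalling genes rose in part. Of 44 tested, 30 were higher and 6 lower (median 0.65; 28 and 8 with median-of-ratios scaling). With the trend on length removed 24 were higher and 10 lower, with a median of 0.25. Among 5 ligands 1 was higher, GDF15, and 1 lower, GDF11 (-0.26, a call lost when any of 5 single libraries was left out). Among 10 receptors 9 were higher and none lower (median 0.65), and 6 were higher and 2 lower with the length trend removed (median 0.20). Of these ACVR2B had 17.6, 13.9 and 16.7 TPM in 5-FU res libraries, against 1.90, 1.89 and 2.08 TPM in WT libraries (log2 fold change 2.52, and 1.53 with the trend on length removed). BMPR2 had 0.97 with TPM but 0.02 with that trend removed, where it did not pass the test. Among 15 SMADs and inhibitors 12 were higher. PMEPA1, which holds back SMAD proteins, had 18.2, 18.3 and 20.8 TPM in 5-FU res libraries, against 1.13, 0.883 and 0.616 TPM in WT libraries. SKIL, a SMAD co-repressor, had a log2 fold change of 1.78. Among 14 targets 8 were higher and 4 lower, with LTBP2 at 1.76.

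Adhesion genes followed. Of 41 genes of integrins and matrix 29 were higher and 8 lower (median 0.63; 26 and 10 with median-of-ratios scaling). Many of these transcripts are long, and with the trend on length removed 21 were higher and 10 lower with a median of 0.26, while the median of the 18 collagens and laminins was 0.04 with that trend removed and 0.59 with TPM. ITGB4, which anchors epithelial cells to laminin, had 603, 545 and 541 TPM in 5-FU res libraries, against 177, 160 and 178 TPM in WT libraries (log2 fold change 1.71). LAMA3 and LAMB3, chains of the laminin that it binds, had 2.35 and 2.29, ITGA2, a collagen receptor, 1.34, SERPINE2, a protease inhibitor, 1.91 and PLAU, the urokinase, 1.59. Mesenchymal genes were mixed, with 7 of 17 higher and 6 lower (4 and 8 with median-of-ratios scaling). SNAI2 had a log2 fold change of 1.43 but SNAI1 of -1.05, SPARC of -2.98 and VIM of -0.55. Of 40 epithelial genes 23 were higher and 8 lower with TPM, and 14 and 16 with median-of-ratios scaling. CDH1, E-cadherin, had 22.3, 21.7 and 22.1 TPM in 5-FU res libraries, against 27.3, 30.1 and 29.6 TPM in WT libraries (log2 fold change -0.38). DSG2, of desmosomes, had 1.56 and MARVELD2, of tight junctions, 1.16, whereas CLDN3 had -1.21, KRT23 -1.63, KRT20 -1.18 and ST14, a membrane protease, -0.92.

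Of the 13 CRC stem cell markers that the study scored, 8 passed the filter on low values, and 7 of these were higher and 1 lower in 5-FU res cells, which became 4 and 1 with median-of-ratios scaling. The list was used by the study on these samples and is not independent evidence of its direction. The rise lay in the adhesion markers: ALCAM had 99.6, 92.8 and 103 TPM in 5-FU res libraries, against 25.7, 27.4 and 29.4 TPM in WT libraries (log2 fold change 1.8), ITGAV had 1.31, ITGB1 1.03 and CD44 0.97. With the trend on length removed ALCAM had 1.46, CD44 0.95, ITGB1 0.61 and ITGAV 0.59. The median of the 5 adhesion markers was 0.61 with that trend removed and 1.03 with TPM. CD44, a hyaluronan receptor, had 492, 453 and 501 TPM in 5-FU res libraries, against 238, 252 and 246 TPM in WT libraries. EPCAM (0.32) and CD24 (0.25) did not pass the test with median-of-ratios scaling, PROM1, the gene of CD133, had 0.25 with TPM and -0.0018 with median-of-ratios scaling, and DPP4 had -0.75. With TPM the calls of CD24 and PROM1 were also lost when 1 library was left out, CD24 without 5-FU res library 2 (0.21) or WT library 1 (0.19) and PROM1 without any of 4 (0.22 each). SOX2, NANOG, LGR5, ALDH1A1 and POU5F1 stayed below the filter. POU5F1 reached 0.833 to 1.5 TPM in 5-FU res and 0.457 to 0.834 TPM in WT libraries, and the other 4 at most 0.196 TPM in any library. Of 19 intestinal and WNT genes 9 were higher and 3 lower (8 and 7 with median-of-ratios scaling). Their median of 0.20 was near the 0.18 of all genes, of which 47.3% were higher and 27.5% lower with TPM. CCND1, cyclin D1, had 1.44, KLF5 0.57, RNF43, a WNT receptor ligase, -1.16 and LCN2 -1.24.

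MYC had 460, 443 and 430 TPM in 5-FU res libraries, against 316, 300 and 312 TPM in WT libraries (log2 fold change 0.52, and 0.26 with median-of-ratios scaling). Of 12 genes of its network 8 were higher and 3 lower (7 and 4 with median-of-ratios scaling), with MGA (1.76) and MXI1 (1.74), both of which oppose MYC, in front. Of 40 ribosome assembly factors 20 were lower and 9 higher (31 and 5 with median-of-ratios scaling), with GRWD1 at -0.86 and UTP20, a long transcript, at 1.41. Genes of RNA modification and decay, which 5-FU in RNA is known to disturb, were lower in 15 of 28 cases and higher in 7 (21 and 5 with median-of-ratios scaling). NOP10 of the pseudouridine synthase complex had 312, 307 and 319 TPM in 5-FU res libraries, against 618, 654 and 630 TPM in WT libraries (-1.02), RPUSD4 had -0.96, and the exosome subunits EXOSC4 and EXOSC9 had -0.87 each. Of 16 snoRNA host RNAs 9 were lower and 4 higher (9 and 3 with median-of-ratios scaling), with SNHG9 at -1.80 and SNHG7 at -0.93.

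Of 51 genes of NRF2, glutathione and iron 15 were higher and 26 lower (10 and 33 with median-of-ratios scaling). FTH1, the ferritin heavy chain, averaged 10600 ± 159 TPM in 5-FU res and 4244 ± 129 TPM in WT cells (SD, n = 3 each; log2 fold change 1.32), and NCOA4, which delivers ferritin for breakdown, had 0.81. GSTM4 had -1.12 and MGST1 -1.07. Of 31 transporters 12 were higher and 12 lower (11 and 15 with median-of-ratios scaling). ABCC3 had a log2 fold change of 1.76 and ABCC1 of 0.73, of which the second fell to 0.04 with the trend on length removed and did not pass. ABCA1 had 1.41, ATP7A 0.81, ATOX1 -0.57 and ABCB1, at most 0.306 TPM in 5-FU res and 0.803 TPM in WT libraries, -0.48, while ABCG2 overlapped between groups (adjusted p = 0.58, limma). Of 19 genes of glycolysis 15 were lower and 3 higher (16 and 2 with median-of-ratios scaling), with TPI1 at -1.23 and SLC2A3 at -1.30, and of 17 hypoxia targets 10 were higher and 4 lower (9 and 5 with median-of-ratios scaling), with NDRG1 at 2.02 and EGLN3 at -1.51. Of 28 lysosome genes 15 were lower and 7 higher (20 and 4 with median-of-ratios scaling), with GLA at -1.26 and GUSB at -1.03.

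Motifs were also looked for in the promoters of other groups. The E2F sites TTTCCCGC or TTTGGCGC were found in 44.2% of 43 matched replication genes and 3.68% of all genes, the CHR element TTTGAA in 68.3% of 41 mitosis genes and 9.52% of all, and the E-box CACGTG in 36.4% of 33 ribosome assembly factors and 10.0% of all. The CARE element TGATGNAA was found in 26.7% of 30 stress response targets and 1.65% of all, and the ARE core TGACNNNGC in 25% of 40 genes of NRF2, glutathione and iron and 15.2% of all. The sterol element TCACNCCAC was in 5.56% of 18 sterol genes and 1.08% of all, the CAGA box CCAGACA in 7.50% of 40 TGF-β genes and 3.87% of all, and the AP-1 site TGANTCA in 11.1% of 18 EGF receptor and MAPK genes and 4.65% of all, each counted on both strands.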

How the data were processed

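RNA of HCT116 5-FU res and HCT116 WT cells (3 libraries each) was sequenced, with HCT116 OX res cells and the SW480 and DLD-1 groups used only where named. The deposited values are FPKM per gene symbol, which the authors made with Trimmomatic 0.38, TopHat2 2.1.1 on Bowtie2 2.2.8, SAMtools 0.1.18 and Cufflinks 2.2.1 on hg19, per their methods (Cuffdiff 2.2.1 per the submitters' processing notes). Read numbers were not used here. FPKM were divided by their library sum to TPM. Genes with 1 TPM or more in at least 3 of the 9 HCT116 libraries were tested on log2(TPM + 1) with limma 3.58.1 (trended prior variance, R 4.3.3) over the 9 libraries, and p-values were adjusted by Benjamini-Hochberg over all 14010 genes. "Called" means an adjusted p under 0.05 with a log2 fold change beyond 1, and "higher" or "lower" without a size means an adjusted p under 0.05. With 3 libraries against 3 an exact permutation test cannot go below p = 0.1, so none was used for single genes. Interactions between lines were fitted over all 27 libraries and 15801 genes. The trend on transcript length was removed with a lowess curve of span 0.3. The test was checked on simulated data with known changes, built on the means and spreads of these libraries, with low genes left unchanged. It recovered 100 of 100 genes changed by 1.2 and 100 of 100 changed by 2 on the log2 scale. Of its calls 6.54% were false.

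The comparison, the gene lists and the motifs were chosen with earlier results of these data known, so counts over lists are descriptions. Of 1294 listed symbols 1293 were found. The genes named are the 12 largest rises and 12 largest falls among genes called, with no overlap between groups, a mean of at least 5 TPM in the higher group and small RNA genes left out, the 2 members farthest from the median gene in each role of each list, and a short set of genes of 5-FU, p53, TGF-β, transport and stem cell biology. IFI27, IFI6, BST2 and ISG15 were added to the interaction test after their values were seen. Promoter sequences are from RefSeq on GRCh38.p14 and no coordinate was set against hg19. Alternatives covered the pseudocount (0.1), low-value filters, FPKM as deposited, median-of-ratios and quantile scaling, small RNA and ribosomal protein genes left out, trends on length and GC content, the samples in the fit, a replicate block and leaving out each library. Python 3.11.15, numpy 2.4.6, pandas 2.3.3 and matplotlib 3.10.9 were used. Samples with the same replicate number in both groups did not deviate together. Results for some genes are not reported here.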

Additional observations from a re-analysis of the deposited data

Results flagged for a closer look

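The effect of 5-FU resistance (5-FU res minus WT, log2) differed between HCT116 and another line for several of the genes tested singly, each by an interaction in limma over 27 libraries with p adjusted over 15801 genes. Each value is the effect in HCT116 minus the effect in the other line.

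Against SW480 the 4 interferon effectors differed most. IFI27 differed by -9.979 (adjusted p = 3.82e-20, limma), IFI6 by -8.976 (2.983e-22), BST2 by -7.835 (2.869e-18) and ISG15 by -4.053 (2.376e-17). In SW480 cells each of the 4 was higher in 5-FU res than in WT cells, with ISG15 close to the threshold (0.21, adjusted p = 0.042, limma). Against DLD-1 the differences were -9.303 for IFI27, -6.504 for IFI6, -6.79 for BST2 and -4.159 for ISG15 (adjusted p from 3.465e-19 to 1.057e-16, limma). Within DLD-1 cells IFI27 (0.25) and BST2 (-0.17) did not pass the test, IFI6 was lower (-0.69) and ISG15 higher (0.32). BST2 averaged 0.714 TPM in DLD-1 WT and 0.55 TPM in DLD-1 5-FU res cells, and IFI27 averaged 1.59 TPM and 2.06 TPM. Such levels left little room for a fall, so for IFI27 and BST2 the difference from DLD-1 mostly restates the fall in HCT116. IFI6 and ISG15, at 36.9 and 147 TPM in DLD-1 WT cells, had room to fall. All 4 genes were added to the test after their values in HCT116 were seen.

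GDF15 rose less in HCT116 than in SW480, by -2.331 (adjusted p = 3.395e-14, limma). It averaged 973 ± 87.4 TPM in HCT116 5-FU res and 525 ± 55.3 TPM in HCT116 WT cells, and 73.9 TPM in SW480 5-FU res and 7.04 TPM in SW480 WT cells, so the untreated level was far higher in HCT116 cells. TK1 differed by -1.095 from SW480 (adjusted p = 1.068e-11, limma), where its own change of 0.11 did not pass the test. CDH1 differed by 1.728 from SW480 (adjusted p = 1.002e-10, limma), where it fell by 2.11. PMEPA1 rose more in HCT116 than in either line, by 1.465 against SW480 (adjusted p = 2.823e-10, limma) and 2.193 against DLD-1 (adjusted p = 5.395e-13, limma). ALCAM differed by 1.857 from DLD-1 (adjusted p = 8.695e-12, limma), where its own change of -0.05 did not pass.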

How the results depend on the processing

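The counts of genes called depend on scaling. Against 1621 called higher and 535 called lower with TPM, FPKM as deposited gave 824 and 841, median-of-ratios scaling 1003 and 1077, quantile normalization 822 and 748, the trend on transcript length removed 876 and 772, and the trend on length and GC content removed 838 and 729. A pseudocount of 0.1 gave 2427 and 764 and a mean TPM of 5 or more 1104 and 387. The other alternatives stayed between 1613 and 1940 higher and between 491 and 539 lower, with the replicate block at 1621 and 539. Same-numbered libraries did not deviate together (r = 0.099, -0.023 and -0.091), and the block reversed or ended no call among the genes named. Leaving out each library gave 1544 to 1787 higher and 529 to 566 lower. In the direct contrast with OX res cells 727 were called higher and 2424 lower with TPM, and 1305 and 1268 with median-of-ratios scaling. Of 168 genes named and tested, 3293 of 3338 pairs of gene and alternative kept direction and call, 10 genes lost the call somewhere, and 5 turned over somewhere. The PROM1 log2 fold change was -0.0018 with median-of-ratios scaling, -0.057 with quantile normalization, -0.012 with the length trend removed and -0.115 with length and GC removed, where BMPR2 had -0.14. UPP1 had -0.038 with median-of-ratios scaling, and quantile normalization gave 0.082 for RPL13A and -0.11 for CD24. DPYD and ABCG2 passed the test, as lower (-0.38 and -0.39), only with the length trend or the length and GC trends removed. IFI27 stayed between -9.81 and -8.83 in every alternative. Depth is unknown, so no limit of detection can be given for low genes such as DPYD, ABCB1 and NANOG.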
